A study of Arabidopsis thaliana with 6 samples.

Results

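The 7 genes described here, psbE, psbF, psbL, psbJ, petL, petG and psaJ, are plastid genes for small membrane subunits of the photosynthetic complexes. They were chosen as the probe sets that the array annotation assigns to a single gene, one of these 7. Each gene had 1 such probe set, so 7 of 22746 tested probe sets are described, out of 69 plastid genes with a single-gene probe set. The study compared wild-type Arabidopsis with msh1 albino mutants on 6 Affymetrix arrays, 3 per group. The nuclear gene MSH1 codes for an organelle protein related to bacterial MutS, which suppresses recombination between repeats in plastid and mitochondrial DNA. Both groups were plants 4 weeks old, grown on MS medium with 1.5% sucrose under 12 h of light and 12 h of dark at 24 °C. The aerial part was sampled, and the labels describe the arrays as biological replicates with RNA taken from each plant. The labels name no msh1 allele. All mutant arrays came from albino plants, so the genotype and the albino state cannot be told apart.

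Photosystem II, the cytochrome b6f complex and photosystem I sit in the thylakoid membrane and pass electrons from water to NADP. Their large subunits bind most of the pigments and cofactors. Small subunits with single membrane-spanning helices surround them and serve in assembly and stability. In land plants psbE, psbF, psbL and psbJ are transcribed together as one unit. petL and petG lie next to that unit on the opposite strand, followed by psaJ, which shares transcripts with the ribosomal protein genes rpl33 and rps18. The gene table gives the order petA, psbJ, psbL, psbF, psbE, petL, petG, psaJ, rpl33 and rps18 among protein-coding genes. Neighbouring probe sets can read parts of one transcript, so the 7 genes are not independent of each other. The authors summarised the arrays by RMA, and every level given here is a log2 RMA value, in which a difference of 1 is 2-fold. Levels of different probe sets are not comparable with each other.

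Of the 7 genes only psaJ passed an adjusted p of 0.05, and it was lower in the albino plants. No gene of the psbE unit passed, and their 95% intervals end short of a 2-fold decrease. Over all probe sets 7.44% were called lower, 3.75% higher and 11.2% in either direction (limma, with p-values adjusted by Benjamini-Hochberg across the whole array). A count of 1 lower gene in 7 is not far from this background. The background split depends on scaling: 1693 lower and 854 higher as deposited became 1095 and 1301 with the arrays aligned on their 75th percentile, 1047 and 1260 after cyclic loess, 1297 and 1186 after a further quantile normalization, 1218 and 1173 with reference genes aligned, and 572 and 581 with spiked controls aligned. With spiked controls aligned the SE was 0.27 for each of the 7 genes, against a median of 0.118 over all probe sets as deposited. The counts of that setting thus do not reflect scaling alone. All 7 differences were below 0 as deposited, as were 13287 of all 22746 probe sets and 44 of the other 62 plastid genes. The median of the 7 was -0.35, against -0.04 over all probe sets and -0.36 over the other 62 plastid genes. In 4 of the 7 genes, psbE, psbF, petL and psaJ, every albino array lay below every wild-type array, which held for 19.8% of all probe sets and for 24 of the other 62 plastid genes. In bulk tissue, fewer cells or plastids and less RNA in each cannot be told apart.

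The arrays were similar in their 75th percentile, which lay between 7.75 and 7.94. At the bright end the groups differed, with maxima from 14.15 to 14.28 in wild type and from 13.10 to 13.97 in albino plants. The lowest 75th percentile and the lowest maximum, 13.10, both belonged to msh1 albino replicate 3. This array was the lowest of the albino arrays in 6 of the 7 genes, in 45 of 69 plastid genes and in 39.1% of all probe sets, and values of the 7 genes without it are given beside their results. Wild-type replicate 1 was the lowest wild-type array in 4 of the 7 genes and in 39 of 69 plastid genes. The difference between 3' and 5' actin control probe sets, a sign of RNA integrity, ran from 3.41 to 4.08 in wild type and from 3.27 to 3.61 in albino plants. Of 6 leaf markers 2 were measured, RCA and PRK, and both were lower in the albino plants (-0.48 ± 0.12 and -0.81 ± 0.13, log2 difference ± SE). The log2 of their summed level ran from 13.73 to 13.88 in wild type and from 13.05 to 13.41 in albino plants. Of 5 root markers 2 were measured, and the log2 of their summed level ran from 7.29 to 8.65 and from 8.47 to 9.74. EXPA7, a root hair expansin, stayed between 4.08 and 4.28 on every array, and PYK10, a beta-glucosidase of roots, had a difference of 1.39 ± 0.44 that did not pass (adjusted p = 0.0911). The part of tissue composition in the results was not tested. Flower and seed markers were not analysed here, and the 1 guard cell marker of 3 that was measured, FMA, had a difference of 0.00 ± 0.13.

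**Figure D1:**
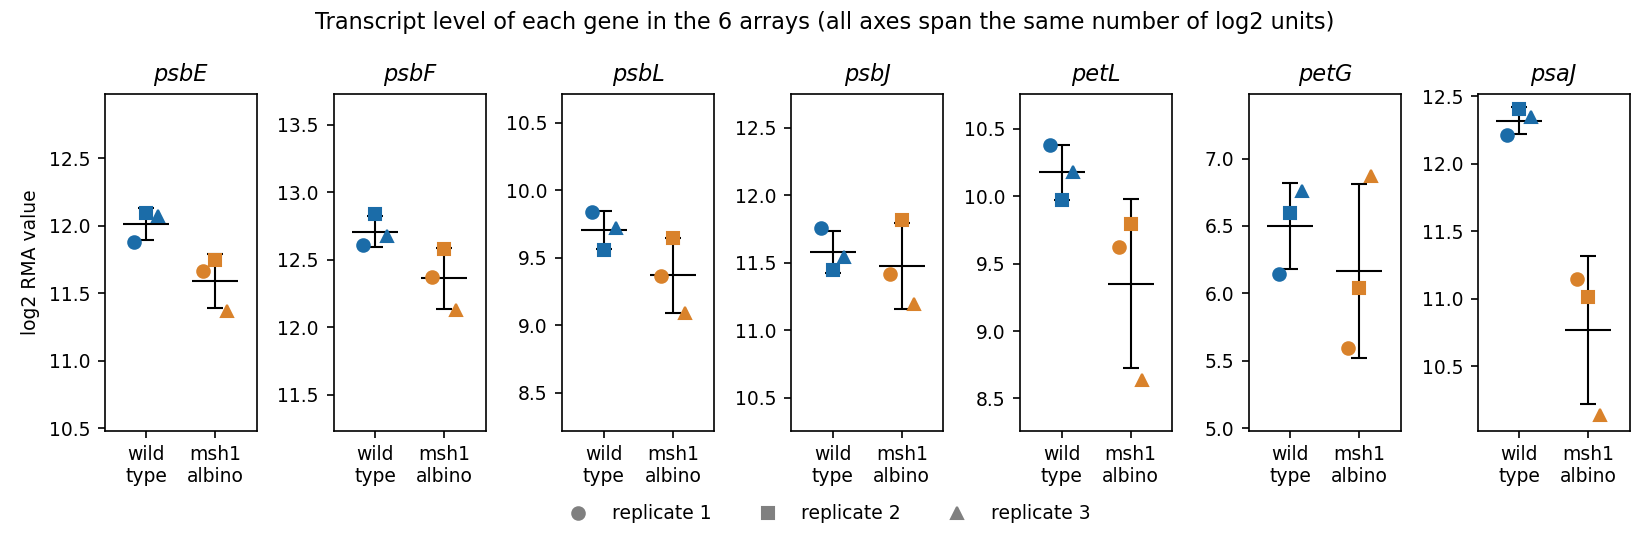
Log2 RMA values of the 7 genes in the 3 wild-type arrays (blue) and the 3 msh1 albino arrays (orange). Marker shapes give the replicate, bars the mean and SD, and all panels span the same number of log2 units; psaJ is the gene with the widest gap between groups, and the albino triangle (replicate 3) is lowest in every panel except petG.

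psbE and psbF code for the alpha and beta subunits of cytochrome b559, the haem protein at the core of photosystem II without which the complex does not assemble. psbE read 11.88, 12.09 and 12.07 in wild-type replicates 1 to 3 and 11.67, 11.75 and 11.37 in albino replicates 1 to 3. The groups did not overlap, but the gap between the lowest wild-type and the highest albino array was only 0.13. The difference of -0.42 ± 0.13 did not pass (adjusted p = 0.0752), and its 95% interval ran from -0.71 to -0.13. It passed with array weights (adjusted p = 0.0413), in 1 of 18 alternative settings. psbF read 12.61, 12.84 and 12.68 in wild type and 12.37, 12.58 and 12.13 in albino plants. Its groups were separated by 0.03, less than the range within either group. The difference of -0.35 ± 0.13 did not pass (adjusted p = 0.150; interval -0.66 to -0.04).

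psbL and psbJ code for 2 further single-helix subunits of photosystem II. PsbL lies near the contact between the monomers of the dimer, and PsbJ lies beside cytochrome b559 and affects electron flow at the quinone sites. psbL read 9.84, 9.55 and 9.72 in wild type and 9.37, 9.65 and 9.09 in albino plants. Albino replicate 2 lay inside the wild-type range, and the difference of -0.34 ± 0.15 did not pass (adjusted p = 0.220; interval -0.69 to 0.02). psbJ read 11.75, 11.45 and 11.54 in wild type and 11.42, 11.82 and 11.19 in albino plants. Here albino replicate 2 was the highest of all 6 arrays. The difference of -0.11 ± 0.17 had an interval from -0.49 to 0.28, so that neither direction was settled (adjusted p = 0.771). Its sign turned after cyclic loess (0.06), after a further quantile normalization (0.07) and without albino replicate 3 (0.03).

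Across the psbE unit the lower ends of the 4 intervals correspond to decreases of 1.64-fold for psbE, 1.58-fold for psbF, 1.61-fold for psbL and 1.41-fold for psbJ. A decrease of 2-fold or more lay outside all 4 intervals as deposited. Albino replicate 3 lay below the mean of the other albino arrays by a similar amount in each, with deviations of -0.34 for psbE, -0.35 for psbF, -0.41 for psbL and -0.42 for psbJ. Without that array the differences were -0.31, -0.23, -0.20 and 0.03 in the same order. Wild-type levels of psbF lay near the top of the scale, and 2 to 3 of the 7 genes were above the 99th percentile of each wild-type array. Whether bright probe sets understate differences was not tested.

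petL and petG code for small subunits of the cytochrome b6f complex, which carries electrons from plastoquinol to plastocyanin. PetG is needed for the complex to accumulate, and PetL adds to its stability. petL read 10.38, 9.97 and 10.18 in wild type and 9.62, 9.79 and 8.64 in albino plants. The groups did not overlap, and albino replicate 3 was 1.07 below the mean of the other albino arrays. The difference of -0.83 ± 0.28 did not pass (adjusted p = 0.111), and its interval from -1.48 to -0.17 includes a 2-fold decrease. Without albino replicate 3 the difference was -0.47 (adjusted p = 0.108), and with spiked controls aligned petL passed (-0.85, adjusted p = 0.0375). In the spiked-control setting psaJ and petG had the same SE as petL, 0.27, so that p-value did not use the spread of petL itself.

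petG read 6.14, 6.59 and 6.76 in wild type and 5.60, 6.04 and 6.87 in albino plants. It was the one gene of the 7 in which albino replicate 3 was the highest albino array, 1.05 above the mean of the other albino arrays and above every wild-type array. The difference of -0.33 ± 0.31 did not pass (adjusted p = 0.592; interval -1.05 to 0.39). Without albino replicate 3 it was -0.68 and without albino replicate 1 it was -0.05, so that single arrays set its size. The same array was thus the lowest albino array for petL and the highest for petG, although the genes are adjacent.

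psaJ codes for a small subunit of photosystem I that lies beside PsaF, where plastocyanin docks. It read 12.21, 12.40 and 12.34 in wild type and 11.15, 11.01 and 10.14 in albino plants. The lowest wild-type array exceeded the highest albino array by 1.06, more than the range within either group. psaJ fell by 1.55 ± 0.24 on the log2 scale, 2.93-fold lower (95% interval 1.98-fold to 4.35-fold lower; limma adjusted p = 0.00919). Its difference was the 65th lowest of 22746. The call held in 18 of 18 alternative settings, with differences from -1.74 to -1.24 and adjusted p-values up to 0.0490, the highest without wild-type replicate 2. The smallest difference came without albino replicate 3 (-1.24, adjusted p = 0.00397), and without wild-type replicate 1 it was -1.61 (0.0263).

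Within each array the mean of the psbE unit minus the mean of petL, petG and psaJ was 1.94, 1.83 and 1.74 in wild type and 2.42, 2.50 and 2.40 in albino plants. The groups did not overlap in this contrast, which shifted by 0.60 between them. The same shift was 0.64 after cyclic loess and 0.69 after a further quantile normalization, and 0.55 to 0.65 with any one array left out. Among petL, petG and psaJ the largest difference was that of psaJ (-1.55, against -0.83 and -0.33), and the contrast without psaJ was not computed. The difference of petG lay within the range of the psbE unit, from -0.42 to -0.11. The shift of 0.60 thus describes a mean that includes psaJ. It does not show that petL and petG changed apart from the psbE unit. In albino replicate 3 petL lay 1.07 below and petG 1.05 above the mean of the other albino arrays. These deviations offset each other in the mean and narrow its spread. For single genes, psbE minus psaJ was -0.34, -0.31 and -0.27 in wild type and 0.52, 0.73 and 1.23 in albino plants. These values show unequal change of the 2 probe sets and do not set their levels against each other. psbE minus petL, the pair where the 2 units meet, was 1.50, 2.12 and 1.89 in wild type and 2.04, 1.95 and 2.73 in albino plants, so the groups overlapped. No test was made of these contrasts, because the genes were chosen with results known.

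**Figure D2:**
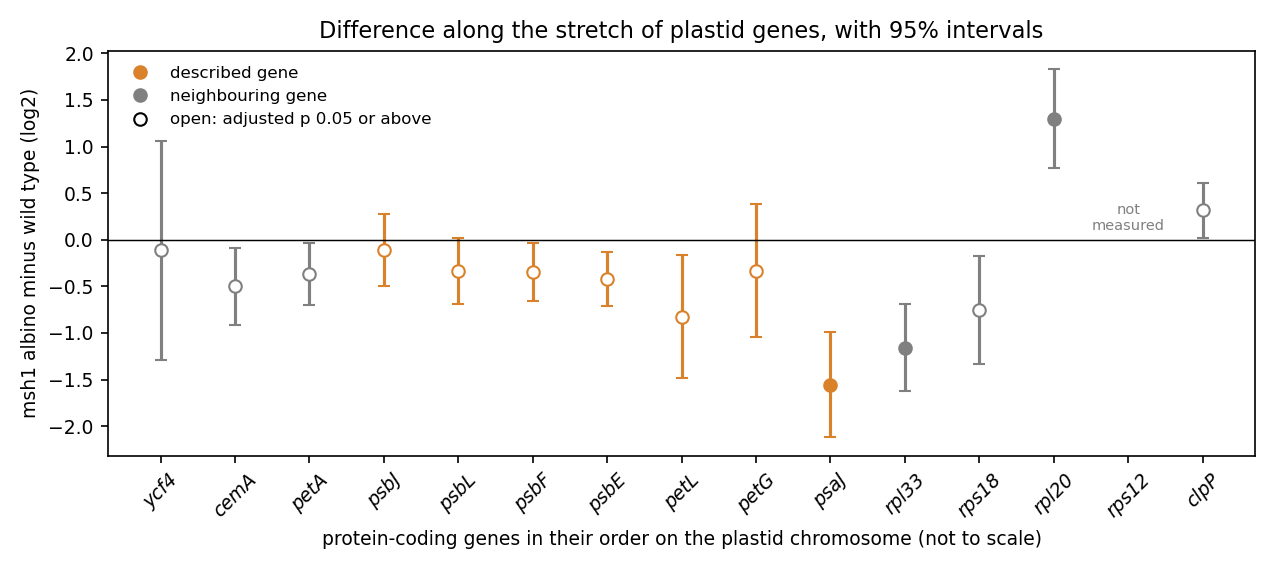
Difference between msh1 albino and wild type on the log2 scale, with 95% intervals, for the 7 genes (orange) and the plastid genes beside them (grey), in chromosome order; filled points passed an adjusted p of 0.05. From psbJ to psbE the points lie between -0.11 and -0.42, psaJ and rpl33 are filled and lower, and rpl20 is filled and higher.

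Among the genes next to the 7, the one directly after psaJ was also lower. Of 5 listed neighbours 4 were measured, of which 1 fell and 1 rose. rpl33, a ribosomal protein gene directly after psaJ, fell by 1.16 ± 0.20 (adjusted p = 0.0130), but did not pass when wild-type replicate 2 (adjusted p = 0.0585) or 3 (0.0523) was left out. rps18, which follows rpl33, had a difference of -0.75 ± 0.25 that did not pass (adjusted p = 0.101) and that passed with array weights (0.0292) or without albino replicate 2 (-1.06, 0.00769). rpl20, the next gene, rose 2.46-fold (SE 0.23 on the log2 scale, adjusted p = 0.0133), and it too did not pass when wild-type replicate 2 (0.0558) or 3 (0.0515) was left out. On the other side petA, for cytochrome f, had a difference of -0.37 ± 0.14 that did not pass (adjusted p = 0.158), a value within the range of the psbE unit beside it. rps18 and petA were named after their values were seen.

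**Figure D3:**
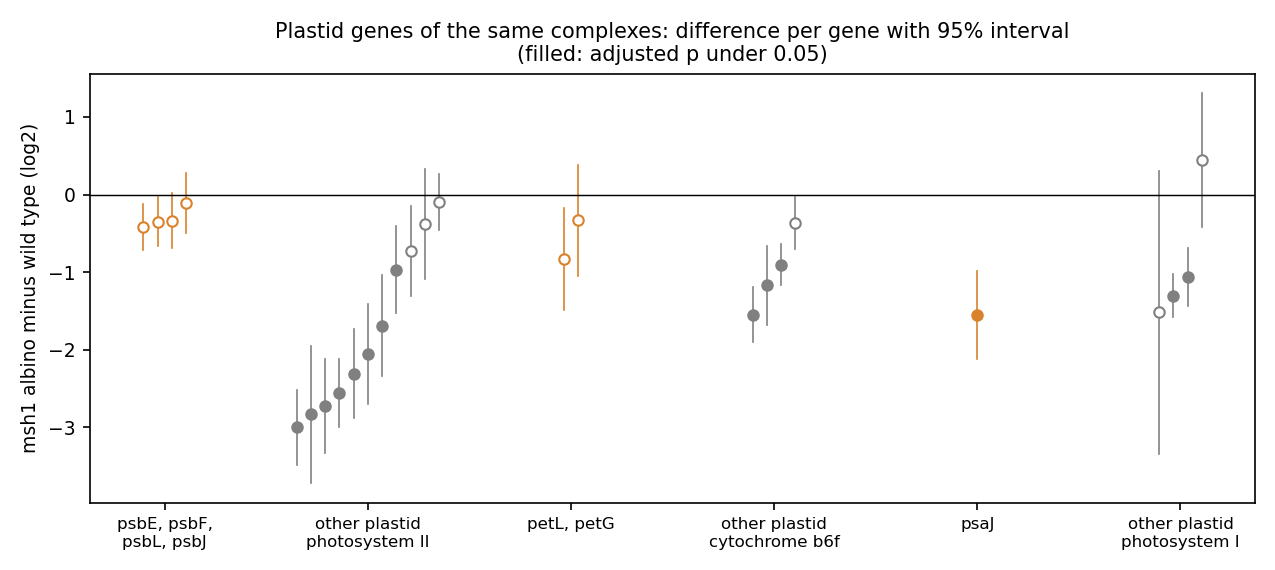
Difference per gene on the log2 scale with 95% intervals, for the described genes (orange) and the other plastid genes of the same complex (grey), sorted within each set; filled points passed an adjusted p of 0.05. The psbE unit lies at the upper end of the photosystem II genes, whereas psaJ (-1.55) lies just below the lowest other photosystem I gene, psaA (-1.52).

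Most other plastid genes of photosystem II fell by more than 2-fold, or nearly so, beside the smaller differences of the psbE unit. Of the 11 measured 8 fell and none rose, with a median of -2.05 and a range from -3.00 to -0.10, beside a median of -0.34 in the psbE unit. psbA, for the D1 reaction centre protein (-3.00 ± 0.21), psbB and psbC, for the inner antenna proteins CP47 and CP43 (-2.83 ± 0.38 and -2.72 ± 0.26), and psbH, for a small phosphoprotein (-2.56 ± 0.19), had the largest falls. The other 3 genes, psbI, psbK and psbM, also for single-helix subunits, did not pass (-0.37 ± 0.31, -0.10 ± 0.16 and -0.73 ± 0.25), and they were named after their values were seen. psbM passed with array weights (adjusted p = 0.0330) or without albino replicate 2 (-1.03, adjusted p = 0.00837). The number that fell ranged from 6 to 8 when any one array was left out. No test was made of the difference between the psbE unit and these genes.

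In the cytochrome b6f complex, 3 of the 4 other plastid genes fell: petB, for cytochrome b6 (-1.54 ± 0.16), petN, for another small subunit (-1.17 ± 0.22), and petD, for subunit IV (-0.90 ± 0.12). Their median with petA was -1.04, against -0.83 for petL and -0.33 for petG. In photosystem I, 2 of the 4 other plastid genes fell, psaB for a reaction centre protein (-1.31 ± 0.12) and psaI for a small subunit (-1.06 ± 0.16), and psaJ had a difference of -1.55. The median of those 4 genes was -1.18, with a range from -1.52 to 0.45. The highest value was that of psaC, which did not pass (0.45 ± 0.37) and was named after its values were seen. psaA for the other reaction centre protein did not pass (-1.52 ± 0.78), and its groups overlapped. It passed without wild-type replicate 1 (-2.59, adjusted p = 0.00193) and with spiked controls aligned (-1.54, adjusted p = 1.24e-06). In the spiked-control setting its SE was 0.27, the same as for psaJ and petL, so that p-value did not use the spread of psaA itself. psaA was named after its values were seen.

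Genes in the nucleus for the same complexes were measured only in part. For photosystem II 3 of 13 listed genes were measured, and PSB27, an assembly factor, fell (-0.52 ± 0.11, adjusted p = 0.0226). PSB27 did not pass when wild-type replicate 2 (adjusted p = 0.0903) or 3 (0.0700) or albino replicate 1 (0.0577) or 3 (0.0547) was left out, with the replicate block (0.0555), after cyclic loess (0.0701) or quantile normalization (0.0817) and with spiked controls aligned (0.408). For photosystem I 2 of 13 were measured and both fell, PSAE-1 (-0.91 ± 0.10) and PSAN (-0.77 ± 0.11), subunits on the stromal and lumenal side. PSAN did not pass with spiked controls aligned (adjusted p = 0.0618). In that setting PSB27 and PSAN both had an SE of 0.27, with differences of -0.54 and -0.80. Nuclear cytochrome b6f subunits, plastocyanin, sigma factors and phage-type polymerases were not analysed here.

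The plastid-encoded RNA polymerase transcribes most photosynthesis genes of the plastid. Of its 4 core subunit genes 2 rose and none fell. rpoC2 rose by 1.33 ± 0.13, and rpoA rose by 0.70 ± 0.18 (adjusted p = 0.0493). rpoA did not pass when wild-type replicate 2 (adjusted p = 0.171) or 3 (0.139) or albino replicate 1 (0.131) or 2 (0.102) was left out, with the replicate block (0.0672) and with spiked controls aligned (0.163). In the spiked-control setting the difference of rpoA was 0.68 with an SE of 0.27. Of 8 nuclear factors listed for the RNA or assembly of these subunits 4 were measured, and none passed. LPA66, needed for editing of psbF transcripts, had a difference of -0.30 ± 0.09 (adjusted p = 0.0813) and was chosen for mention with its values known. AT3G14330, known as CREF3 and needed for editing of psbE transcripts, had -0.32 ± 0.11 (adjusted p = 0.107), and LPA1, a photosystem II assembly factor, had -0.33 ± 0.12 (adjusted p = 0.140). Editing itself was not measured by these arrays.

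Among 13506 other single-gene probe sets, the patterns most like each unit were found by the root mean square distance over the 6 arrays between centred log2 values. The 3 closest to the mean of the psbE unit were the nuclear loci AT1G14020, AT3G11510 and AT3G60810, at distances of 0.0295, 0.0379 and 0.0409 on the log2 scale. None of them passed the test between groups (adjusted p = 0.269, 0.343 and 0.175). The closest to the mean of petL, petG and psaJ were AT4G04630, AT2G44210 and PSAN, at 0.0580, 0.0748 and 0.0770, and all 3 of these fell. Both sets were matched to their unit on these same arrays. Whether their genes passed thus follows largely from the choice and is no separate evidence about the units. The members of the units themselves lay at 0.08 to 0.13 from the mean of the psbE unit and at 0.29 to 0.56 from the mean of petL, petG and psaJ. The profiles of psbE, psbF, psbL and psbJ over the arrays therefore differed less from each other than those of petL, petG and psaJ, a description with no test.

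**Figure D4:**
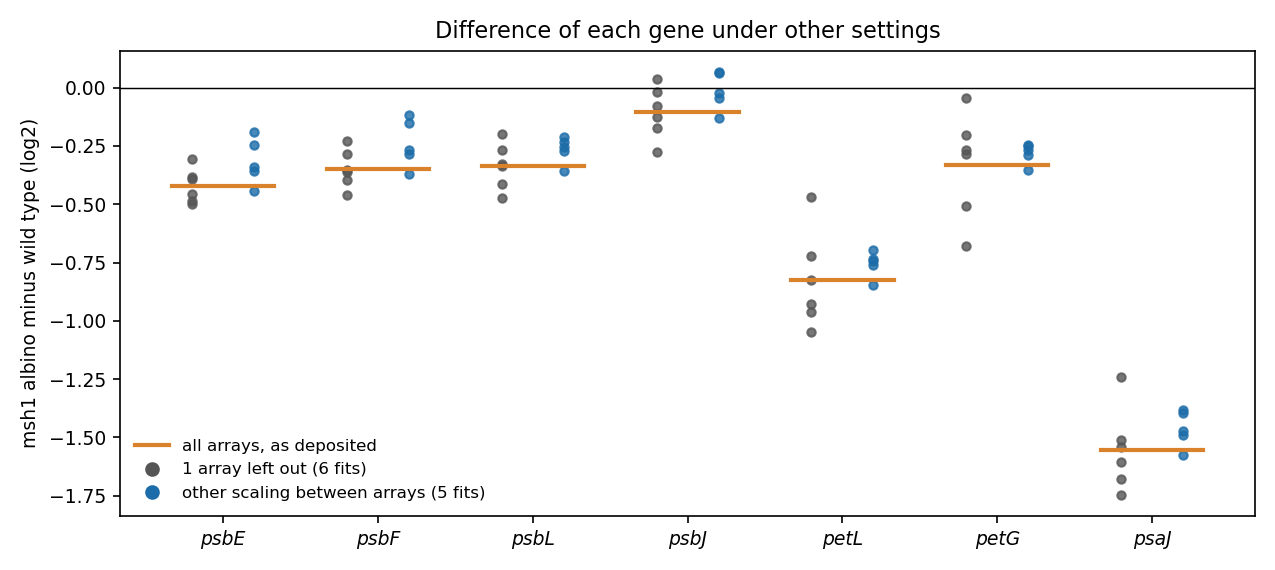
Difference between msh1 albino and wild type for each gene on the log2 scale, as deposited (orange bar), with 1 array left out (dark points) and under other scalings between arrays (blue points). psaJ stays between -1.74 and -1.24 in these fits, psbJ crosses 0, and the dark points run from -1.05 to -0.47 for petL and from -0.68 to -0.05 for petG.

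The settings moved the 7 genes by different amounts. Under the 5 other scalings psbE ranged from -0.44 to -0.19, psbF from -0.37 to -0.12, psbL from -0.36 to -0.21 and psbJ from -0.13 to 0.07. petL ranged from -0.85 to -0.70, petG from -0.35 to -0.25 and psaJ from -1.58 to -1.38. In none of the 18 alternatives did any of the 7 genes pass as higher.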

How the data were processed

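Transcript levels were measured in 6 Affymetrix arrays, 3 of wild type and 3 of msh1 albino plants, grouped as the labels name them. The values are on the log2 scale, and the authors made them with RMA in the affy package, per the submitters' processing notes. The sources used here give no versions, settings or build. Values were used as deposited. After removal of 64 array controls, 22746 probe sets were tested with lmFit and eBayes (limma 3.58.1, R 4.3.3). Differences are albino minus wild-type values, tests are two-sided, and p-values were adjusted by Benjamini-Hochberg with a threshold of 0.05. Errors are limma's SE, and intervals are at 95%. The number of arrays limits the precision, and the median SE was 0.118. The script was tested on simulated data.

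Gene names come from the array annotation (13513 with 1 gene, 503 with several, 8730 unnamed here) and the TAIR10.1 gene table, used for names and gene order only. Named were the 7 genes, up to 4 called members of each list (otherwise the 2 with the largest difference) and the 3 closest patterns per unit; others are said to be outside this rule. The members and lists were chosen with earlier results of these data known. Labels do not say how RNA was primed, which matters for plastid transcripts with few poly(A) tails. The replicate numbers were not treated as pairs, since same-numbered arrays did not deviate together (r = 0.01, -0.34 and -0.02 across probe sets).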

Additional observations from a re-analysis of the deposited data

How the results depend on the processing

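The psaJ call held in all 18 alternatives: 5 scalings, 2 filters on low values, array weights, a robust variance prior with an intensity trend, the replicate block, probe sets sharing sequence left out, an adjusted p of 0.01, and each array left out. Members called lower numbered 1 in 16 of these and 2 in the others. The added gene was psbE with array weights (-0.42, adjusted p = 0.0413) and petL with spiked controls aligned (-0.85). As deposited petL had a difference of -0.83 with an SE of 0.28. In the spiked-control setting petL, petG and psaJ shared an SE of 0.27, so the petL p-value did not use the spread of petL itself. Beyond this, the causes of the psbE and petL calls were not tested. psbJ turned sign after cyclic loess (0.0624), quantile normalization (0.0675) and without albino replicate 3 (0.0349), and ran from -0.28 to 0.0349 with any one array left out. psbK turned after cyclic loess (0.0378), quantile normalization (0.0154) and with array weights (0.0591); neither gene was called in these settings. The shift between the means of the 2 units, psaJ included, was 0.69 instead of 0.60 after quantile normalization.

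Probe sets called lower and higher over the whole array were 1095 and 1301 with the 75th percentile aligned, 572 and 581 with spiked controls aligned, 1047 and 1260 after cyclic loess, and 438 and 251 at an adjusted p of 0.01. The spiked-control counts also rest on the SE of that setting, 0.27 for each of the 7 genes. With the replicate block they were 921 and 564, and the block changed none of the 7 genes' calls (psaJ adjusted p = 0.0188). With any one array left out, 553 to 1424 were lower and 298 to 749 higher, and such fits hold fewer arrays. Reference alignment rested on 3 of 8 listed genes. Signal over background was not measured here, so differences of dim probe sets, such as that of petD (means of 5.06 and 4.16), may be understated.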
